A study of Mus musculus with 6 samples.

Results

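Part of the array used in this study carried probes for transcripts that had no gene name and were known only by the stretch of genome they came from, such as chr16:40267386-40268181 with the letter F or R for the forward or reverse strand. These intergenic transcript probes were taken as all non-control probes whose identifier began with an autosome and coordinates, which gave 4276 of 56605 non-control probes. They named 3094 regions of the mm9 build, 62 to 538251 bp long with a median of 7327 bp. Another 174 probes of the same kind on chromosome X were left out. Of the 3094 regions, 1679 overlapped another one, and merging the overlaps left 2051 separate loci, so the probes are not independent of each other. Forward probes numbered 2143 and reverse probes 2132. No genome or gene annotation of the mm9 build was used here, so whether a region lies outside of all genes was not checked, and no sequence is shown.

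Long intergenic RNAs are transcribed by RNA polymerase II from stretches between the protein-coding genes. Many were first located through chromatin marks of active promoters and transcribed bodies rather than through known transcripts. They tend to be rare in the cell and restricted to a tissue or cell state, and only a few have a known function, for instance in X inactivation, imprinting or the assembly of nuclear bodies. Trimethylation of lysine 27 on histone H3, laid down by Polycomb repressive complex 2, keeps many developmental genes and noncoding transcripts silent. The K27M change in histone H3.3 found in diffuse midline glioma replaces that lysine by methionine and lowers this mark across the genome.

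RNA was compared between 3 WT samples and 3 IG27 samples. WT cells are OS3 cells with an empty vector, and IG27 cells are OS3 cells that received a plasmid with mouse H3f3a coding for H3.3-K27M. OS3 is a glial line immortalized with SV40, from the brain of newborn C3H/HeN mice according to the methods (C3H and male in the labels), a background that both groups share. According to the methods, clones were established by drug selection after transfection, and the labels do not tie a sample to a clone, so a difference between these lines and an effect of the mutation cannot be told apart. All samples came from cells grown for 2 days, and each was hybridized to 1 single-color array of the same slide. Within a slide row, IG27 arrays could be compared with WT replicate 2 only, so slide row and group cannot be fully told apart. The labels do not state that the samples were separate cultures, so the p-values below measure the spread between these samples, which may be technical.

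The deposited scanner output of IG27 replicate 2 was incomplete, so its intensities came from the deposited value table and it had no background flags. Every level below is log2 of the processed intensity minus the 75th percentile of the same array, so 0 is the 75th percentile of its probes. Every difference is IG27 minus WT on that scale, with its standard error (SE) and an adjusted p from limma over all 34060 tested probes. The 3 H3f3a probes differed by -0.26 to 0.17, and 1 of them was called, lower in IG27 cells; whether they read the plasmid transcript was not tested. Of 17 glial markers, 14 were well above background on every complete array, among them Gfap, Vim, Nes, Sox2 and Sox10. All 17 were tested, and 7 were called higher in IG27 cells and 7 lower. Gfap differed by -1.07 and Sox2 by -0.80, while S100b differed by 4.93 and Pdgfra by 2.36. Of the marker lists for other cells, 2 of 5 neuronal (Rbfox3 and Syt1), 2 of 6 microglial (Cx3cr1 and Ptprc), 2 of 4 endothelial (Cdh5 and Cldn5) and 1 of 5 fibroblast markers (Lum) were above background on no array. Others were seen, among them Tubb3 at 3.78 in WT and 1.15 in IG27 cells, Snap25 at 2.39 and 2.28, Tmem119 at 1.48 and 0.72, Csf1r at 1.02 and -0.55, and Col1a1 at 6.85 and 5.93 (means, n = 3). Some went the other way, among them Col3a1 at 4.59 in WT and 6.16 in IG27 cells and P2ry12 at -2.05 and -1.56. Of 4 tested microglial markers 2 were called higher and 2 lower, and of 4 fibroblast markers also 2 and 2. Of 3 tested neuronal markers 0 were called higher and 2 lower, where 30.8% of all tested probes were called higher and 33.4% lower. Of 2 tested endothelial markers 1 was called higher and 1 lower. Kdr was not well above background on any WT array and was at 1.31 in IG27 cells. Pecam1 went from -2.58 in WT to -2.84 in IG27 cells (adjusted p = 0.0328, limma). Summed neuronal marker levels were 4.14 to 4.32 in WT arrays and 2.74 to 2.89 in IG27 arrays, microglial 2.30 to 2.41 and 1.40 to 1.55, endothelial -2.57 to -2.42 and 1.38 to 1.41, fibroblast 7.23 to 7.27 and 7.07 to 7.15, and glial 8.52 to 8.59 and 8.18 to 8.25. The part of these markers in the results below was not tested.

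Somewhat fewer intergenic probes were above background on the IG27 arrays with complete output than on the WT arrays. The WT arrays differed more among themselves than the nearest WT and IG27 arrays did. Of the 4276 probes, 2364, 2327 and 2481 were well above background on the WT arrays and 2302 and 2267 on the IG27 arrays with complete output, which did not overlap and were not tested. These were 55.3%, 54.4% and 58.0% of the intergenic probes on the WT arrays and 53.8% and 53.0% on the IG27 arrays. Of all non-control probes, 59.4%, 59.0% and 61.2% were above background on the WT arrays and 59.4% and 58.8% on the IG27 arrays, which overlapped. Intergenic probes were above background less often than coding RefSeq probes (68.0% to 69.7%) and more often than RefSeq long noncoding RNA probes (30.3% to 33.8%). None was saturated. On every complete array 2030 intergenic probes (47.5%) were above background and on no array 1515 (35.4%). The share of all probes above background on every array was 53.8%.

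A small set appeared in 1 of the groups alone. For 59 intergenic probes of 55 regions, both flagged IG27 arrays and no WT array were above background, 1.38% of the intergenic probes against 1.77% of all probes. For 87 probes of 86 regions the reverse held, 2.04% against 1.78%. For the transcripts seen in IG27 cells alone, 16 of them on chromosome 16, the lower bound on the fold was at least 6.39-fold in the median and 195.6-fold at the most, and 25 of the 59 were at least 10-fold higher. Of the 82 with a bound among the 87 seen in WT cells alone, the median was at least 1.95-fold, the highest 149.6-fold, and 3 were at least 10-fold. These bounds set the brighter group against the dimmest signal that counted as above background on each array of the other group, or the probe's own signal where that was higher. The classes rest on 2 flagged IG27 and 3 WT arrays, and their bounds were not compared by a test. Chromosome 5, with 9, held the most of the 87 probes seen in WT cells alone.

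Intergenic transcripts differed between IG27 and WT cells in both directions, and less often than the rest of the array. Of 2347 intergenic probes that were well above background on all complete arrays of at least 1 group, 1175 (50.1%) were called at an adjusted p under 0.05 (limma), where 64.2% of all tested probes were called. They were higher in IG27 cells for 623 probes (26.5%, against 30.8% of all tested probes) and lower for 552 (23.5%, against 33.4%). With quantile normalization the split turned, with 533 higher and 720 lower of 1253 called, so that 42.5% of the called probes were higher in place of 53.0%. A difference of at least 2-fold was called for 365 intergenic probes (15.6%, against 20.7%), of which 222 were higher (9.46%, against 11.1%) and 143 lower (6.09%, against 9.64%). The values of the groups did not overlap for 1320 intergenic probes (56.2%, against 71.1%). Their median difference was 0.04, and their median absolute difference was 0.37, against 0.44 over all tested probes. The sign of that median was not stable, at -0.09 with quantile normalization, -0.02 with the slide row as a block and 0.17 without a filter on dim probes. The filter admitted probes that were above background in 1 group alone, of which 58 of 59 and 59 of 87 were called. Among the 2030 above background on every complete array, 991 were called (48.8%, against 63.2% of all probes of that kind).

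Intergenic probes were also dimmer than most. The median level of the tested intergenic probes was -2.85, of all tested probes -0.91, of coding RefSeq probes 0.26 and of RefSeq long noncoding RNA probes -3.11. Among probes of a mean level of -5 to -4, 35.3% of 451 intergenic probes were called, against 54.6% of 1561 coding probes and 46.5% of 185 long noncoding RNA probes. At levels of 0 to 1 the shares were 63.3% of 147 intergenic, 73.1% of 2242 coding and 66.7% of 57 long noncoding RNA probes. At 4 or more they were 44.0% of 50 intergenic and 61.5% of 2138 coding probes. The share of intergenic probes was below that of coding probes in each of the 10 classes of level. These shares describe probes with overlapping targets and were given no test.

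**Figure D1:**
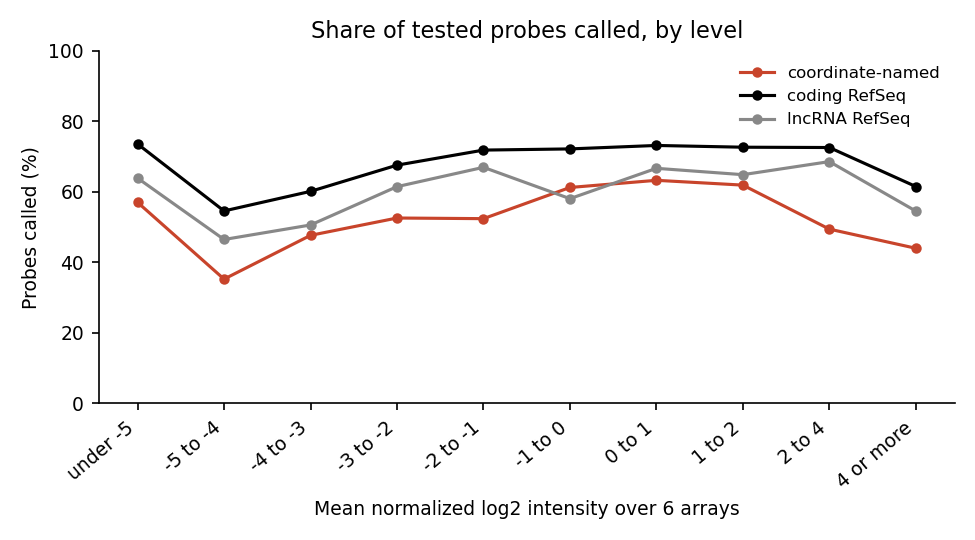
Percentage of tested probes called at an adjusted p under 0.05 (vertical axis) against the mean normalized log2 intensity over 6 arrays in 10 classes (horizontal axis), for intergenic probes named by coordinates, coding RefSeq probes and RefSeq long noncoding RNA probes. The intergenic line lies below the coding line in all classes, for instance at 35.3% against 54.6% for levels of -5 to -4.

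The brightest intergenic probes differed little between the groups. The probe of chr17:17481706-17482457, reverse strand, was at 7.69, 7.65 and 7.66 in WT arrays and at 7.61, 7.48 and 7.58 in IG27 arrays. These did not overlap, but the difference of -0.11 was not called (SE 0.06, adjusted p = 0.159, limma). The probe of chr11:22681800-22707775, reverse strand, was at 7.41, 7.32 and 7.32 in WT and 7.61, 7.37 and 7.38 in IG27 arrays, which overlapped (adjusted p = 0.295, limma). Among the 6 brightest the probe of chr6:116123643-116124550, forward strand, spotted 10 times on each array, was called. It was at 7.47, 7.42 and 7.48 in WT and at 7.08, 7.02 and 7.11 in IG27 arrays, a fall of 0.39 (SE 0.05, adjusted p = 0.00109, limma). The other three, chr7:108209996-108216032 and chr12:73838608-73862621 on the reverse strand and chr14:78924115-78938125 on the forward strand, differed by -0.18, 0.02 and -0.04 and were not called (adjusted p = 0.098, 0.855 and 0.809, limma).

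The largest rises in IG27 cells came from 1 stretch of chromosome 16. Of the 12 intergenic regions with the largest called rise, 7 lay between chr16:40070103 and 40472481, a stretch of 402.4 kb, and all 12 were read by forward probes. The probe of chr16:40267386-40268181 was at -6.64, -6.76 and -5.89 in WT arrays, where 1 of the 3 was well above background, and at 1.83, 1.92 and 1.93 in IG27 arrays. The probe of chr16:40471828-40472481 was at -5.06, -5.56 and -5.89 in WT arrays, 2 of them above background, and at 2.60, 2.76 and 2.78 in IG27 arrays. The groups did not overlap at either, with fitted differences of 8.32 (SE 0.23, adjusted p = 1.35e-06, limma) and 8.22 (SE 0.21, adjusted p = 9.89e-07, limma), whose size rests in part on WT signals not well above background.

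The other five were not well above background on any WT array. At chr16:40312038-40315564 the levels were -7.64, -6.38 and -7.45 in WT and 0.87, 0.93 and 0.92 in IG27 arrays, at least 195.6-fold higher (adjusted p = 5.63e-06, limma). At chr16:40307070-40308718 they were -5.59, -7.64 and -8.07 in WT and 0.63, 0.62 and 0.97 in IG27 arrays, at least 152.9-fold higher (adjusted p = 9.40e-05, limma). At chr16:40283097-40284822 they were -7.97, -6.56 and -8.21 in WT and 0.34, 0.34 and 0.56 in IG27 arrays, at least 144.4-fold higher (adjusted p = 1.73e-05, limma). The IG27 arrays lay close together at each of these regions, and the WT values, not well above background, spread more widely. At chr16:40096026-40097242 the levels were -8.04, -7.78 and -8.32 in WT and -0.92, -1.01 and -0.89 in IG27 arrays, at least 56.6-fold higher (adjusted p = 4.14e-07, limma). At chr16:40070103-40073270 they were -7.60, -5.50 and -7.87 in WT and -0.85, -0.89 and -0.66 in IG27 arrays, at least 51.4-fold higher (adjusted p = 2.34e-04, limma). All of these probes, like those of chr16:40267386-40268181 and chr16:40471828-40472481, passed the filter through the IG27 arrays alone, where they were high. Their adjusted p-values are thus no separate support for the rises.

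All calls in this stretch were of forward probes, and no reverse probe there was tested. It held 14 intergenic probes, 11 forward and 3 reverse, and its limits were set after the values were seen. Of the 10 tested, 9 were called higher, all forward. The 3 reverse probes were not tested, because none was above background on all complete arrays of a group. That of chr16:40307931-40318856 was at -6.68, -6.34 and -7.65 in WT and at -3.42, -5.98 and -5.68 in IG27 arrays. These did not overlap, and 1 IG27 array was above background. The forward probe of chr16:40467818-40468474, above background on no array and also without overlap, was not tested either. The remaining tested forward probe, chr16:40307931-40318856, was at -8.04, -3.15 and -8.30 in WT and at -3.22, -3.04 and -3.06 in IG27 arrays. WT replicate 2 alone was near the IG27 level, and the difference of 3.39 was not called (adjusted p = 0.0712, limma). At its start, the reverse probe of chr16:39984031-40081556, whose region overlaps the first one of the stretch, was bright in both groups. It was at 5.03, 5.29 and 5.26 in WT and at 5.17, 4.71 and 4.89 in IG27 arrays, a difference of -0.27 that was not called (adjusted p = 0.125, limma). Outside the stretch but within 1 Mb of it lay 5 intergenic probes, this one included, of which 2 were called higher. These were forward probes, chr16:40552116-40552742 with a rise of at least 7.81-fold and chr16:40651649-40653314 with a rise of at least 12.4-fold.

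**Figure D2:**
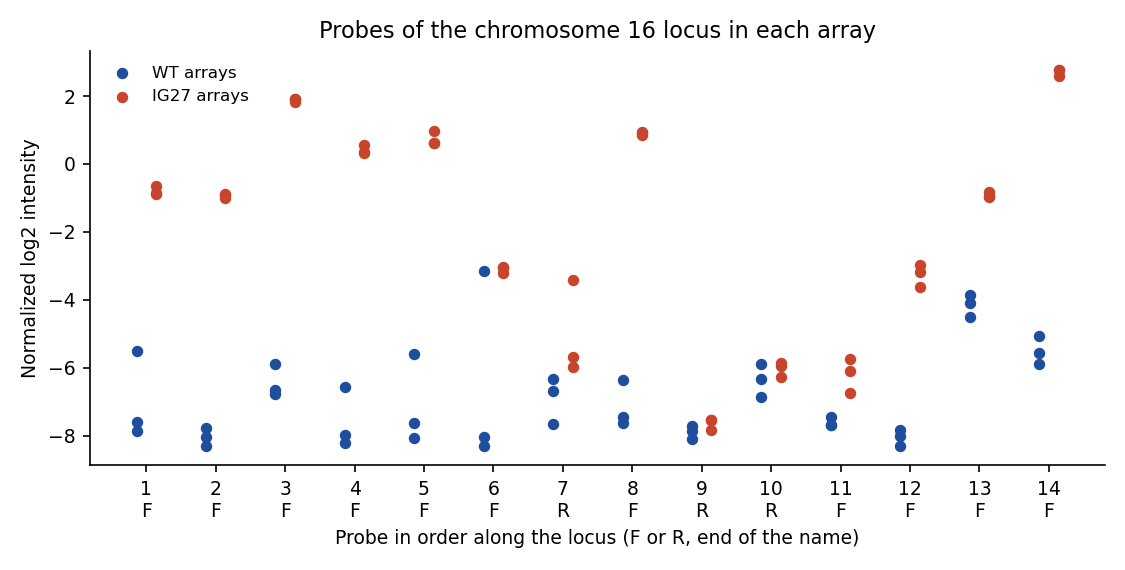
Normalized log2 intensity (vertical axis) of the 14 intergenic probes of the chromosome 16 stretch in order along it (horizontal axis, with the strand letter), with 1 point for each of 3 WT and 3 IG27 arrays. In 9 forward probes the IG27 arrays stand above all WT arrays and were called, while the tested forward probe at place 6 has 1 WT array at -3.15 beside the IG27 arrays. The 3 reverse probes and the forward probe of chr16:40467818-40468474 were not tested.

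Of the other five large rises, 3 were on chromosome 14. The probe of chr14:26973425-26986650 was above background on every complete array, at -5.29, -5.17 and -5.26 in WT and 1.59, 1.79 and 1.70 in IG27 arrays, a difference of 6.93 (SE 0.07, adjusted p = 1.39e-07, limma). The probe of chr14:70483555-70484159 was at -6.73, -6.29 and -5.90 in WT, with 1 array above background, and at 1.32, 1.51 and 1.70 in IG27 arrays, a fitted difference of 7.82 (SE 0.22, adjusted p = 1.41e-06, limma) whose size rests mostly on WT signals not well above background. The WT and IG27 values of both did not overlap. The remaining regions were above background on no WT array. Like that of chr14:70483555-70484159, their probes passed the filter through the IG27 arrays alone, so their adjusted p-values are no separate support for the rises. The probe of chr12:109619407-109619843 rose at least 167.5-fold, from -6.05, -6.20 and -6.05 to 1.26, 1.33 and 1.27 (adjusted p = 1.13e-07, limma). That of chr14:105988692-105994145 rose at least 52.5-fold, from -8.01, -6.95 and -8.28 to -1.16, -1.24 and -0.74 (adjusted p = 1.66e-05, limma). That of chr4:3169583-3180017 rose at least 50.7-fold, from -7.84, -7.04 and -8.15 to -1.33, -1.06 and -0.90 (adjusted p = 8.17e-06, limma).

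The largest falls were smaller than the largest rises and spread over 9 chromosomes. The first was the reverse probe of chr10:72726649-72799726, at 0.84, 0.70 and 0.64 in WT arrays and at -6.74, -6.75 and -6.00 in IG27 arrays, where it was above background on no array. It was at least 149.6-fold lower in IG27 cells (adjusted p = 1.75e-06, limma). This probe passed the filter through the WT arrays alone, so its adjusted p is no separate support for the fall. The forward probe of the same region fell less, from -2.94, -2.63 and -2.91 to -3.73, -3.70 and -4.0, a difference of -0.99 (adjusted p = 5.99e-04, limma). Both strands of this region were thus lower in IG27 cells without overlap.

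Another 3 falls were measured above background in both groups. The reverse probe of chr8:93337794-93348869 went from 1.55, 1.35 and 1.41 in WT arrays to -3.61, -3.60 and -3.66 in IG27 arrays, a difference of -5.06 (SE 0.07, adjusted p = 1.95e-07, limma). That of chr2:181650800-181669350 went from 2.50, 2.50 and 2.56 to -2.25, -2.23 and -2.04, a difference of -4.69 (SE 0.07, adjusted p = 2.47e-07, limma). That of chr12:52950465-52950990, also reverse, went from -0.64, -0.91 and -0.70 to -4.88, -5.13 and -5.0, a difference of -4.25 (SE 0.10, adjusted p = 8.28e-07, limma). The replicates of each group lay close together at these regions, far apart from the other group.

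The remaining falls were bounded by the background of the IG27 arrays. Their probes passed the filter through the WT arrays alone, so their adjusted p-values are no separate support for the falls. The reverse probe of chr2:181664903-181665707, a region inside the chromosome 2 region above, went from -3.32, -3.99 and -3.83 to -7.53, -7.83 and -7.16, at least 10.4-fold lower (adjusted p = 3.02e-05, limma). The reverse probe of chr1:52706748-52712402 went from -3.07, -3.94 and -3.52 to -7.42, -7.75 and -7.43, at least 12.1-fold lower (adjusted p = 2.13e-05, limma). Likewise, the reverse probe of chr7:48794017-48815817 fell at least 9.69-fold (adjusted p = 5.80e-06, limma). None of these regions had overlapping groups, and the 7 largest of the 12 falls were all read by reverse probes. The forward probes of chr5:14943275-14944205, chr8:37582157-37582802, chr17:27479404-27481770 and chr2:174852887-174853961 fell at least 8.17-fold, 7.24-fold, 6.10-fold and 6.02-fold. The forward probe of chr3:27837825-27880925 was at -3.65, -3.46 and -3.53 in WT and at -7.42, -4.88 and -7.36 in IG27 arrays. It fell at least 7.11-fold (adjusted p = 0.0091, limma), with IG27 replicate 2 nearest to the WT arrays. With the slide row as a block the fitted difference was about as large, -3.09 in place of -3.0, and was not called (adjusted p = 0.0610, limma).

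By chromosome, intergenic transcripts shifted up on some autosomes and down on others. The medians below used the 1691 intergenic probes whose mean level over the 6 arrays was at least -4.05, and they are descriptions without a test. Over all of these the median difference was 0.04, with 54.2% of the differences positive, and the median of 19087 RefSeq-named probes was -0.08. The autosome medians ran from -0.20 on chromosome 8 to 0.29 on chromosome 16, and 11 of 19 were above 0. That count was 5 with quantile normalization and 18 without a filter on dim probes. On chromosome 8, 25 of 95 differences were positive, and of 142 tested probes 14 were called higher and 55 lower (48.6% called, against 82.7% of 1086 RefSeq-named probes there). On chromosome 9, 14 were called higher and 38 lower of 109 tested (47.7%, against 81.6% of RefSeq-named probes), with a median of -0.04. On chromosome 2, 28 were called higher and 54 lower of 157 (52.2%, against 70.0%), with a median of -0.09.

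At the other end stood chromosomes 15, 16, 17 and 19. On chromosome 15 the median was 0.27, with 57 of 78 differences positive and 44 probes called higher and 12 lower of 104 tested (53.8%, against 72.1% of RefSeq-named probes there). On chromosome 17 it was 0.24, with 63 called higher and 20 lower of 151 (55.0%, against 62.4%), and on chromosome 19 it was 0.23, with 25 higher and 5 lower of 59 (50.8%, against 67.9%). On chromosome 16 it was 0.29, with 43 higher and 15 lower of 93 (62.4%, against 60.1%). That median was 0.11 with the slide row as a block, 0.19 with quantile normalization, 0.13 over probes above background on every complete array and 0.43 over the probes of the fit. Over the 11 chromosome 16 probes with a mean level of at least 0 it was 0.03. Without the stretch described above, which was left out after its values were seen, the chromosome 16 median was 0.18 over 53 probes, 34 of them positive. On chromosome 4 the calls were also mostly upward, 58 higher and 25 lower of 164 (50.6%, against 72.5%), with a median of 0.13.

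The named genes of the same autosomes ran in much the same order over a wider range. The median of RefSeq-named probes was -0.69 on chromosome 8, -0.68 on chromosome 9, 0.36 on chromosome 4 and 0.33 on chromosome 15. It had the sign of the intergenic median on 15 of 19 autosomes. Across the 19 autosomes the medians of the groups of probes correlated with a Pearson r of 0.792 and a Spearman rho of 0.825, over values that share the same 6 arrays. The range of the medians was 0.49 for intergenic and 1.05 for RefSeq-named probes. On chromosome 9 the intergenic median of -0.04 lay furthest from that of the named genes. Brighter intergenic probes, with a mean level of at least 0, had a median of -0.23 on chromosome 8 (25 probes) and -0.25 on chromosome 9 (6 probes), against -0.73 for RefSeq-named probes of that brightness on each. Their median was 0.03 on chromosome 16 (11 probes) and -0.01 on chromosome 4 (32 probes). On chromosomes 15 and 19 it was 0.46 (14 probes) and 0.52 (7 probes). Of the 19 medians of brighter probes 8 were above 0, and 5 had another sign than the medians over all levels.

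**Figure D3:**
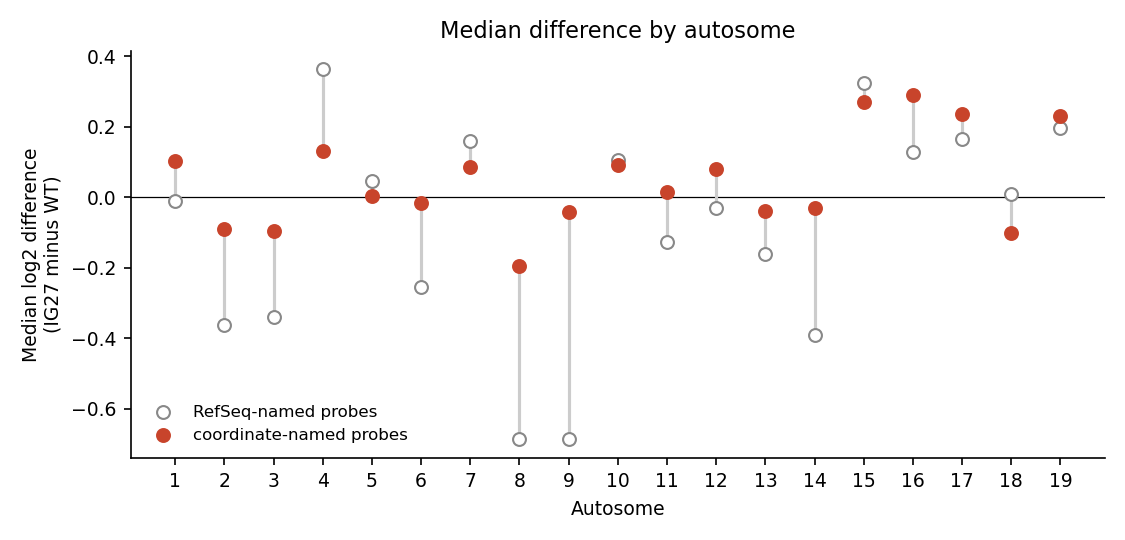
Median log2 difference, IG27 minus WT (vertical axis), on each autosome (horizontal axis) for intergenic probes named by coordinates (filled) and RefSeq-named probes (open), joined by a line. Intergenic medians run from -0.20 on chromosome 8 to 0.29 on chromosome 16, inside the wider range of the RefSeq-named probes.

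In single arrays the direction was the same on 10 autosomes, that is, the medians of the 3 IG27 arrays and those of the 3 WT arrays did not overlap on chromosomes 1, 2, 3, 4, 8, 15, 16, 17, 18 and 19. Each probe was set against its own mean over the 6 arrays. On chromosome 8 the median deviation was 0.10, 0.19 and 0.06 in WT replicates 1, 2 and 3 and -0.06, -0.09 and -0.21 in IG27 replicates 1, 2 and 3. On chromosome 15 it was -0.18, -0.08 and -0.24 in WT and 0.16, 0.18 and 0.15 in IG27 arrays. On chromosome 9 the arrays overlapped, at 0.09, 0.09 and -0.03 in WT and 0.01, -0.10 and -0.15 in IG27 arrays.

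**Figure D4:**
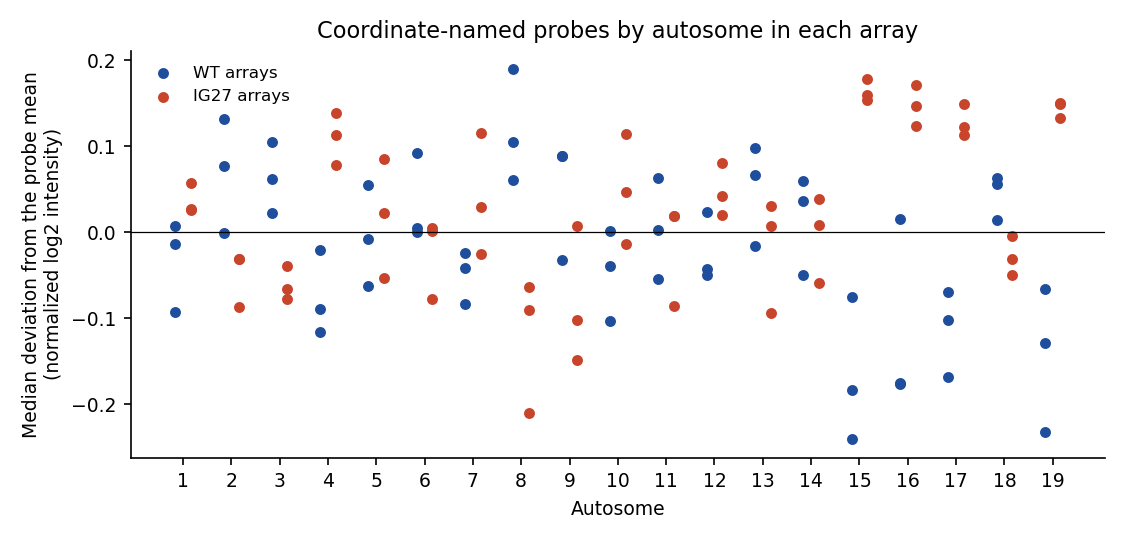
Median deviation of intergenic probes from their mean over 6 arrays (vertical axis, normalized log2 intensity) on each autosome (horizontal axis), with 1 point for each WT and IG27 array. The WT and IG27 points are apart on 10 autosomes, with IG27 lower on chromosome 8 and higher on chromosomes 15, 16, 17 and 19.

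Most stretches of an autosome held differences of both signs. Cut into windows of 5 Mb with at least 4 probes each, 190 windows held 1331 intergenic probes. All differences were positive in 13 windows and negative in 9. Window medians of at least 1 were found in 3 windows and of -1 or less in 2. The regions in the rest of this paragraph and the next were chosen after their values were seen. Of all tested probes on the array, 30.8% were called higher. The highest window median, 4.71, was that of the window from 40 to 45 Mb of chromosome 16 with the stretch above. Between 65 and 70 Mb of chromosome 10 the median was 1.06, with 4 of 4 probes called higher, all inside chr10:66559716-66647841. From 35 to 40 Mb of chromosome 17 all 10 differences were positive and 8 were called higher, with a median of 0.40. Most of these probes lay inside chr17:39960567-39992817 or shared the region chr17:35080914-35090009, so they do not stand for as many separate loci.

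On chromosome 15, 10 probes of 5 overlapping or neighboring regions between 61870759 and 62102500, 6 forward and 4 reverse, were all called higher, by 0.39 to 1.39. A forward probe of chr15:61984389-62102500 was at 0.44, 0.36 and 0.36 in WT and at 1.5, 1.47 and 1.72 in IG27 arrays (difference 1.17, SE 0.08, adjusted p = 5.39e-05, limma). Its reverse probe was at -3.12, -3.25 and -3.48 in WT and at -1.66, -2.06 and -1.95 in IG27 arrays (difference 1.39, SE 0.14, adjusted p = 2.26e-04, limma). Both strands were thus higher in each IG27 array than in any WT array.

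Chromosome 8 had 10 windows, of which 1 had a median above 0. From 40 to 45 Mb all 10 differences, from 7 regions that in part overlap, were negative and 6 were called lower. From 45 to 50 Mb the median was -1.34, with 5 of 9 called lower and 2 higher. Of all tested probes on the array, 33.4% were called lower and 30.8% higher. The reverse probe of chr8:49853937-49874087 was at 2.25, 2.16 and 2.21 in WT and at -0.07, 0.00 and 0.20 in IG27 arrays (difference -2.16, SE 0.08, adjusted p = 4.79e-06, limma). From 115 to 120 Mb the median was -1.69, where the forward probe of chr8:119732348-119749198 was at 2.56, 2.63 and 2.60 in WT and at 0.58, 0.70 and 0.54 in IG27 arrays (difference -1.99, SE 0.06, adjusted p = 2.19e-06, limma). On this chromosome, then, single loci fell by more than the chromosome median. Of its 142 tested intergenic probes, 9 were called at least 2-fold higher and 22 at least 2-fold lower. Of all tested probes on the array, 11.1% were called at least 2-fold higher and 9.64% at least 2-fold lower.

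Strands of 1 region that were both called mostly went the same way. Of the 3094 regions, 1178 had forward probes only, 1103 reverse probes only and 812 both. In 331 regions both strands were tested, each strand by 1 probe where there were several. Both strands were called higher in 30 regions and both lower in 34, they were called in opposite directions in 16, 1 strand was called in 152 and neither in 99. Across these 331 regions, which share arrays and in part overlap, the forward and reverse differences had a Pearson r of 0.273. Forward and reverse probes were called about equally often, 49.5% of 1152 and 50.6% of 1195.

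**Figure D5:**
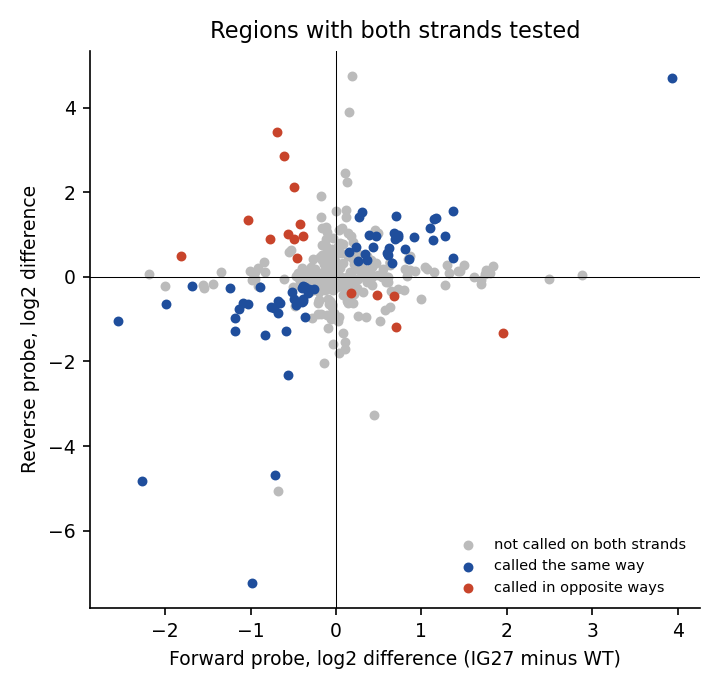
Log2 difference, IG27 minus WT, of the forward probe (horizontal axis) and the reverse probe (vertical axis) of the 331 regions with both strands tested, 1 point each. Of the pairs called on both strands, 30 are higher on both, 34 lower on both and 16 in opposite directions.

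At chr5:35975265-35982561 the forward probe fell and the reverse probe rose. The forward probe went from 2.55, 2.42 and 2.47 in WT to 2.06, 1.96 and 1.97 in IG27 arrays, a difference of -0.49 (SE 0.06, adjusted p = 7.43e-04, limma). The reverse probe went from 1.86, 2.02 and 2.00 to 4.06, 3.97 and 4.21, a difference of 2.12 (SE 0.08, adjusted p = 5.43e-06, limma). Neither probe had overlapping groups. At chr7:111526943-111545093 the forward probe likewise fell, from 1.62, 1.56 and 1.61 to 0.96, 1.05 and 0.97 (difference -0.60, adjusted p = 1.62e-04, limma). Its reverse probe rose from -4.67, -4.71 and -3.17 to -1.12, -1.47 and -1.40 (difference 2.85, SE 0.43, adjusted p = 0.00146, limma).

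At chr3:58118325-58136550 the order was turned. The forward probe rose from 0.17, 0.13 and -0.05 to 2.30, 2.13 and 1.68 (difference 1.95, SE 0.17, adjusted p = 1.22e-04, limma), while the reverse probe was at least 2.49-fold lower and above background on no IG27 array (adjusted p = 2.49e-04, limma). That reverse probe passed the filter through the WT arrays alone, so its adjusted p is no separate support for the fall. At chr6:86477309-86537554 the forward probe fell by 0.69 (SE 0.08, adjusted p = 4.59e-04, limma). Its reverse probe was at -2.64, -6.63 and -6.34 in WT and at -1.76, -2.08 and -1.49 in IG27 arrays. It passed the filter through the IG27 arrays alone, so its adjusted p-values are no separate support for the rise. WT replicate 1 was the only WT array above background there and lay close to the IG27 arrays, so the difference of 3.43 carried an SE of 1.06 (adjusted p = 0.0296, limma). Without WT replicate 1 the difference was 4.71 (adjusted p = 3.45e-05, limma). Without WT replicate 2 or 3 or any of the IG27 replicates it was 2.71 to 3.58 and not called (adjusted p = 0.0644 to 0.0898, limma), and without a filter on dim probes it was 3.43 and not called (adjusted p = 0.0634, limma).

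Probes with the same name did not always agree. Of 299 names carried by more than 1 probe, 129 had at least 2 tested probes. In 89 of these all differences had the same sign, and 10 had probes called in both directions. The range of differences within a name was 0.28 in the median and 2.18 at most. The length of the region made little difference to the share of called probes, 49.3% to 51.4% over the quartiles of length. Of the shortest quartile, 62 to 703 bp, 37.5% were above background on every complete array, against 48.4% to 51.2% in the others.

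Long noncoding RNAs that do carry gene names changed in both directions as well. Of 50 listed, 37 were on the array and 30 were tested, of which 13 were called higher and 10 lower (76.7%, against 64.2% of all tested probes), with a median difference of 0.13. This list was written by hand; of all 888 tested RefSeq long noncoding RNA probes, 275 were called higher and 238 lower (57.8%). Neat1, the scaffold of nuclear paraspeckles, rose by 1.30 (SE 0.11, adjusted p = 1.21e-04, limma), and the imprinted H19 was at -6.70 ± 0.54 (SD, n = 3) in WT cells, above background on no array, and at -2.20 ± 0.34 (SD, n = 3) in IG27 cells. Pvt1, a neighbor of Myc on chromosome 15, rose by 1.18 and Airn, antisense to Igf2r on chromosome 17, by 1.17 (adjusted p = 2.96e-05 and 2.13e-05, limma). Whether the neighboring chromosome 15 probes described above read Pvt1 was not checked, so these rises may not be separate results. Sox2ot, whose gene spans Sox2, and the imprinted Peg13 fell by 2.35 and 2.77 (adjusted p = 6.23e-07 and 1.26e-06, limma). Pantr1 and Six3os1 fell further and were above background on no IG27 array. Pantr1 went from 0.87 in WT to -6.95 in IG27 cells, and Six3os1 from -4.03 to -7.67 (means, n = 3). Norad differed by 0.03 and Tug1 by -0.13 and were not called (adjusted p = 0.609 and 0.0585, limma).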

How the data were processed

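RNA of 3 WT and 3 IG27 samples was measured on 1 slide of 6 Agilent single-color mouse arrays. The authors deposited, per array, the intensity of each spot from Feature Extraction (version 9.1 in the submitters' processing notes, 10.7.3.1 in the file headers), with mm9 coordinates, and a table of the same processed intensity per probe. All single-spot probes of the complete arrays equaled that table within a tolerance of 1e-04, with the columns of WT replicates 2 and 3 exchanged, so arrays kept their scanner labels, and IG27 replicate 2, whose scanner output was incomplete, was read from the table. Median processed signals were 62.2, 62.9 and 55.4 in WT and 77.1, 77.6 and 67.0 in IG27 arrays, which did not overlap, over a local background of 29 to 34. The 75th percentiles overlapped, at 987.1 to 1071.5 in WT and 998.4 to 1134.4 in IG27 arrays. The part of this gap in the differences of dim probes was not tested. The number of arrays limits the precision.

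Values computed here from the deposited intensity were log2 minus the 75th percentile of each array. Differences were fitted without a block by limma 3.58.1 (R 4.3.3; two-sided moderated statistics) for the 34060 probes that passed the background flag on all complete WT arrays, all complete IG27 arrays or both, adjusted by Benjamini-Hochberg and called under 0.05. The steps were tested on simulated data. The letters F and R were read as strands. Genes were named and placed on chromosomes through a GRCm38.p6 table. Named regions were the 12 largest rises, the 12 largest falls, the 6 brightest and the 4 largest opposite-strand pairs, 1 probe per region, with chromosome 18 counted only. The probes, lists and rules were chosen with earlier results of these data known. Alternatives were other filters, normalizations and backgrounds, the replicate number or slide row as a block, complete scanner output only, and each array left out; a chromosome 16 median without its stretch and medians of brighter probes were added after the data were examined.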

Additional observations from a re-analysis of the deposited data

How the results depend on the processing

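The count of called intergenic probes was 1175 and ran from 1064 to 1109 with 1 array left out, and it was 1022 with probes above background on every complete array, 1200 with normexp (run on the processed signal), 1253 with quantile normalization and 883 with the slide row as a block, which compares IG27 cells with WT replicate 2. Same-numbered WT and IG27 arrays deviated together by correlations of 0.008, 0.02 and 0.064, and arrays of different number by -0.082 to 0.063. These values show no pairing by number and cannot exclude one. With the replicate block 1167 were called, 618 higher and 549 lower. The number of autosomes with a median above 0, 11, became 18 without a filter on dim probes, where the median of all probes was 0.18, and 5 with quantile normalization, and ran from 10 to 12 with 1 array left out. Chromosome 8 had the lowest median under all planned settings (-0.32 to -0.02), and chromosome 9 had it among brighter probes. The highest was chromosome 15, 16 or 19. With the laxer flag of a positive and significant signal, 57 in place of 87 probes were seen in WT cells alone and 499 in place of 1515 on no array. No called difference of a named region changed sign; the uncalled differences of chr17:17481706-17482457 (-0.11, and 0.004 with quantile normalization), chr14:78924115-78938125 (-0.04, and 0.01) and chr12:73838608-73862621 (0.02, and -0.11 with the slide row) did. Of 575 repeats of named regions, 566 stayed on their side of the threshold, 8 lost the call (7 of them the reverse probe on chromosome 6) and 1 gained it, chr11:22681800-22707775 with quantile normalization (adjusted p = 0.0160, limma). The causes were not tested. Dim probes, the absent flags of 1 array and overlapping regions limit these counts.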
